A study of Mus musculus with 6 samples.

Results

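The matrix metalloproteinases (MMPs), the ADAMTS proteases, the ADAMTS-like proteins and the tissue inhibitors of metalloproteinases (TIMPs) were examined in sorted mouse lung mesenchyme. Members were taken by gene symbol from the authors' deposited table, as Mmp, Adamts, Adamtsl or Timp followed by a number, with an optional final letter for Mmp. This gave 49 of 29322 genes, namely 21 MMPs, 19 ADAMTS proteases, 5 ADAMTS-like genes and 4 TIMPs. Each symbol had 1 row. Bulk RNA-seq had been done on 3 Yeti libraries and 3 wild-type libraries from adult mice. Yeti+/- mice carry a gain-of-function allele of the interferon-gamma gene, and the controls are wild-type. Per the labels, all mice of both groups had received tamoxifen, and the allele it acts on is not named. Cells were sorted as negative for CD45, CD31, Epcam and the dead-cell dye DAPI, while the extraction protocol speaks of cultured cells, so it is not settled whether the RNA came from fresh or cultured cells. The labels do not say whether the 3 libraries of a group came from separate animals, so p-values measure the spread between these libraries.

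MMPs are zinc endopeptidases, secreted or anchored at the cell membrane, that cut collagens, elastin and other matrix proteins and release growth factors held in the matrix. ADAMTS proteases are secreted relatives with thrombospondin repeats, and they process procollagens, cleave versican and aggrecan, and act on single plasma or matrix proteins. ADAMTS-like proteins share the repeats but lack the protease domain, and several bind fibrillin microfibrils. TIMPs bind the active site of these enzymes and inhibit them, and in lung the balance of proteases and TIMPs bears on alveolar walls, emphysema and fibrosis.

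The single comparison asks how gene expression differs between lung mesenchyme exposed to excess interferon-gamma and wild-type lung mesenchyme. The authors' deposited table holds 1 mean normalized count, 1 log2 fold change with its standard error (SE) and 1 p-value per gene, and no values per library. Group levels printed here as fitted levels were derived from that mean and fold change of the authors, assuming groups of equal size. Added over all genes, the mean normalized counts of the authors' deposited table came to 26646632, which is the average depth of a library after scaling. The authors' DESeq2 Wald test gave 574 genes with a Benjamini-Hochberg adjusted p under 0.05 among 20212, or 2.84% per the authors' deposited table. Of the same genes, 1.85% passed as higher and 0.994% as lower in Yeti per the authors' deposited table.

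The defining mesenchymal markers were abundant and the interferon response was present. The 8 mesenchymal markers came to fitted levels of 605508 normalized counts in Yeti and 531517 in wild-type, and 0 of 8 passed per the authors' deposited table (0 also at an unadjusted p under 0.05). All 7 interferon response genes that were looked at rose in Yeti per the authors' deposited table, with a median log2 fold change of 2.55. Markers of leukocytes, endothelium and epithelium, against which the sort selected, were also detected. Ptprc, which encodes CD45, had a fitted level of 5146 normalized counts in Yeti and 4597 in wild-type. The 8 macrophage and monocyte markers summed to 15910 in Yeti and 9136 in wild-type, and 0 of 8 passed per the authors' deposited table, with 7 above 0 and 3 higher at an unadjusted p under 0.05. The 7 neutrophil markers summed to 6909 in Yeti and 5374 in wild-type, and 0 of 7 passed per the authors' deposited table (0 also at an unadjusted p under 0.05). All 5 lymphatic endothelial markers fell, with summed fitted levels of 521 in Yeti and 3003 in wild-type. Of the 6 endothelial markers 2 fell, Emcn and Tie1, and of the 4 B and plasma cell markers 2 fell, Jchain and Mzb1, per the authors' deposited table. None of the 5 epithelial and none of the 4 mesothelial markers passed (2 and 0 lower at an unadjusted p under 0.05). No marker in these lists stood at 0, the lowest being Ly6g with a mean of 35.5 normalized counts per the authors' deposited table. In bulk samples, fewer cells of a type and less RNA per cell cannot be told apart.

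A single member of the family passed the test. Of the 42 members with an adjusted p, 1 rose and 0 fell in Yeti per the authors' deposited table, which is 2.38% against the background of 2.84%. That gene was Adamts4, a protease that cleaves the proteoglycans aggrecan and versican. The median log2 fold change was 0.0044 over the 42 members and -0.00092 over all genes with an adjusted p per the authors' deposited table. There were 22 members above 0 and 20 below. At an unadjusted p under 0.05 there were 8 members, 19.0% of the 42, against 9.28% of all genes and 10.8% of genes with a mean of at least 100 normalized counts per the authors' deposited table. Of the 8, 7 were higher in Yeti, against a background of 5.28%, and 1 was lower, against a background of 4%. The 7 were Adamts4, Adamts9, Mmp25, Mmp17, Timp1, Mmp14 and Mmp2, and the 1 was Mmp16. Among them, Adamts9 was next to the threshold with an adjusted p of 0.119 per the authors' deposited table.

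**Figure D1:**
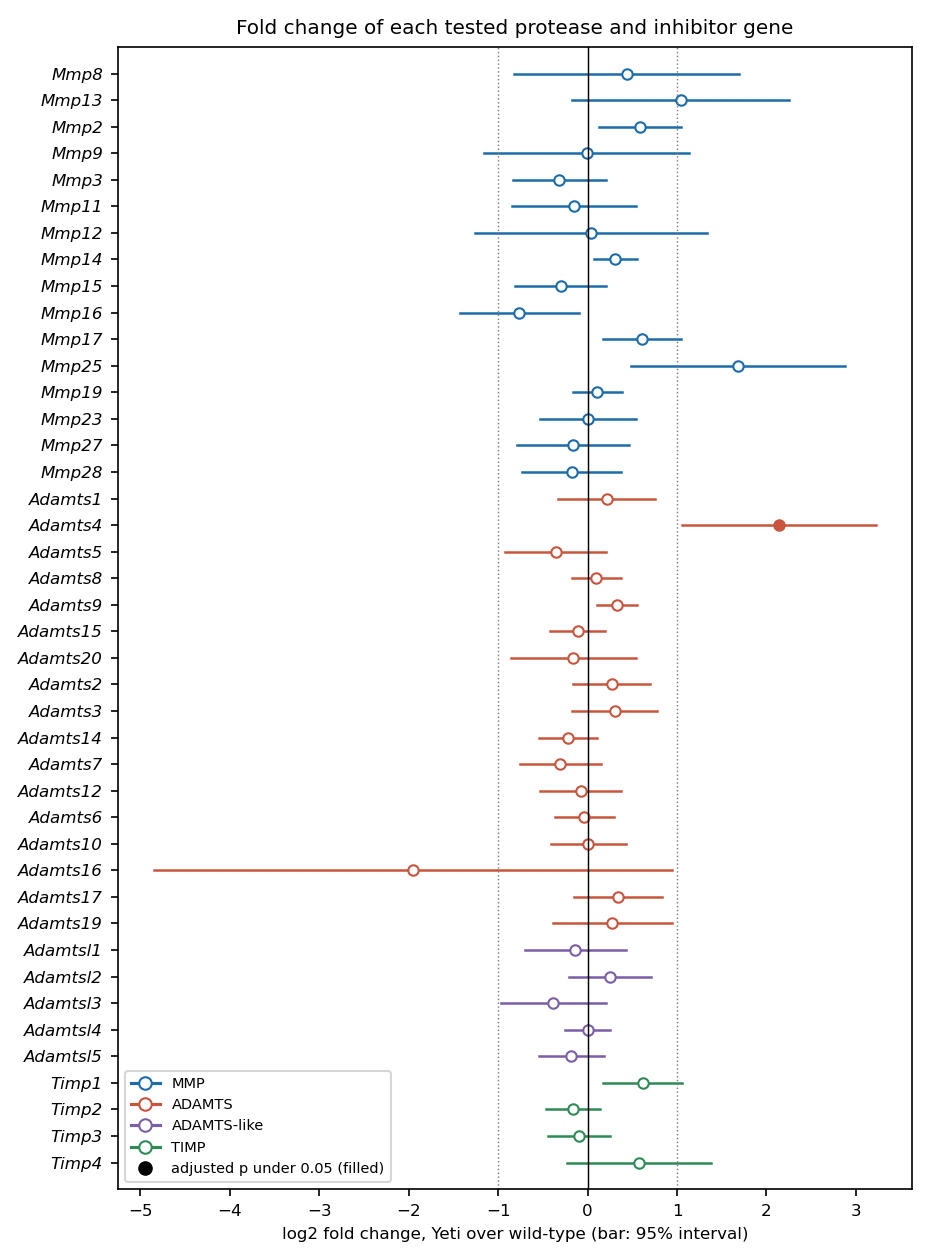
Log2 fold change, Yeti over wild-type, of the 42 members with an adjusted p, ordered by role, with 95% intervals as bars. Filled points passed an adjusted p of 0.05, and dotted lines mark a 2-fold change. Adamts4, at 2.14, is the one filled point, and most other intervals cross 0.

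For many members the data bounded the change. The 95% interval of the fold change (1.96 SE to each side) lay within a 2-fold change in either direction for 30 of 42 members, 71.4%, and for 61.0% of all genes with an adjusted p per the authors' deposited table. Among genes with a mean of at least 100 normalized counts, these shares were 77.1% of 35 members and 86.1% of all genes. The members' fold changes are set among all tested genes in the plot of mean against fold change.

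**Figure D2:**
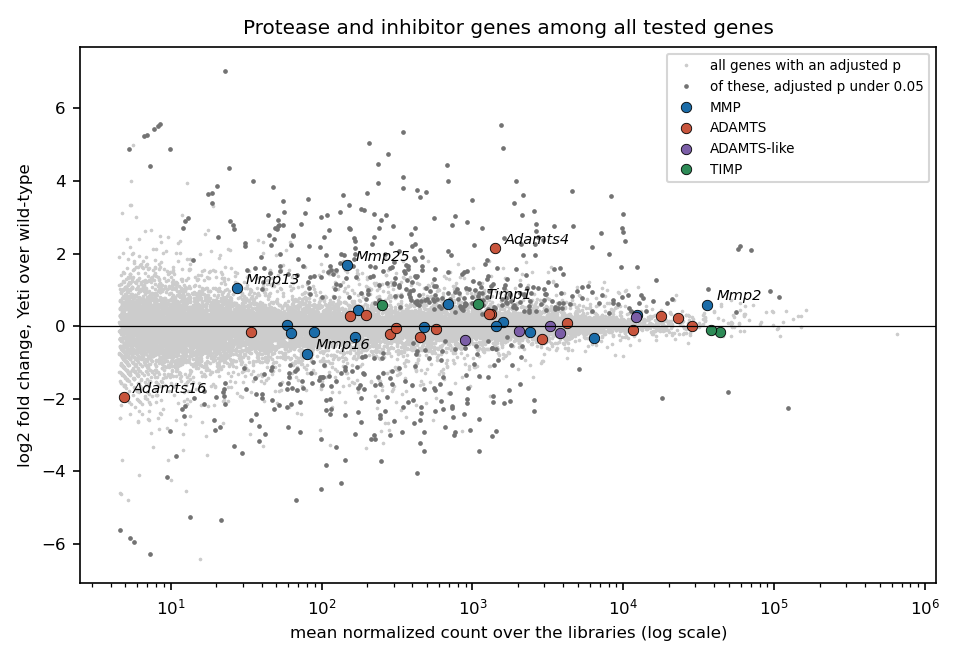
Log2 fold change, Yeti over wild-type, against the mean normalized count (log axis) for all 20212 genes with an adjusted p in grey, darker where they passed, with the 42 members in colour by family. Adamts4 lies among the genes that passed, and the other members lie in the band around 0, with Mmp25 and Adamts16 farthest from it.

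The proteoglycan-cleaving ADAMTS proteases include the one member that rose. Adamts4 (ENSMUSG00000006403, GRCm38 chromosome 1, 171250421 to 171260637, plus strand) had fitted levels of 2311 normalized counts in Yeti and 524 in wild-type. Its log2 fold change was 2.14 ± 0.55 (SE) per the authors' deposited table, a 4.41-fold rise with a 95% interval of 2.08 to 9.34 and an adjusted p of 0.00639. Its between-library coefficient of variation beyond counting noise, derived from the SE, was 0.468, against a median of 0.141 over all genes with a mean of at least 100. Here and below, this coefficient is that of the authors' fitted model, not a spread observed in values per library. Beside Adamts4, the macrophage and monocyte markers summed to 15910 in Yeti and 9136 in wild-type, with 0 of 8 passing and 7 of 8 above 0. Their part in the rise of Adamts4 was not tested. With a t distribution of 4 degrees of freedom in place of the normal for the authors' statistic, neither Adamts4 nor any other gene passed. Even the interferon response gene Igtp, with an adjusted p of 5.78e-53 by the authors' Wald test, did not pass. That setting therefore cannot set Adamts4 apart from other genes.

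None of the other 6 proteoglycan-cleaving members passed. Adamts1, the most abundant of them by count, had fitted levels of 24704 normalized counts in Yeti and 21314 in wild-type and a log2 fold change of 0.21 ± 0.28 (adjusted p = 0.999) per the authors' deposited table. Adamts5, the other main aggrecanase, stood at -0.36 ± 0.29, with fitted levels of 2523 in Yeti and 3236 in wild-type. The upper bounds of their intervals, 0.76 for Adamts1 and 0.20 for Adamts5, lay below the lower bound of Adamts4, 1.06. The difference between these genes was not itself tested, since values per library were not used here. Adamts9, a large secreted protease that cleaves versican, had fitted levels of 1472 in Yeti and 1171 in wild-type and the lowest derived coefficient of variation of the tested members, 0.0947. Its log2 fold change was 0.33 ± 0.12 per the authors' deposited table, unadjusted p = 0.00453 and adjusted p = 0.119. Adamts15 had fitted levels of 11060 in Yeti and 11954 in wild-type and stood at -0.11 ± 0.15 (adjusted p = 0.999) per the authors' deposited table. Adamts8 stood at 0.10 ± 0.14 and Adamts20, a low member with a mean of 33.8 normalized counts, at -0.16 ± 0.36 per the authors' deposited table.

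The procollagen N-proteinases, which remove the amino-terminal propeptides of fibrillar procollagens, did not pass. Adamts2, the main one in these cells, had fitted levels of 19551 normalized counts in Yeti and 16230 in wild-type, with a log2 fold change of 0.27 ± 0.22 (adjusted p = 0.954) per the authors' deposited table. Adamts3, which also activates the lymphangiogenic factor VEGF-C, stood at 0.30 ± 0.24 and Adamts14 at -0.22 ± 0.17 per the authors' deposited table. Adamts7 (-0.31 ± 0.23) and Adamts12 (-0.08 ± 0.23), which cleave cartilage oligomeric matrix protein (COMP), were both below 0 and did not pass per the authors' deposited table. Adamts12, with the more counts, had fitted levels of 557 in Yeti and 589 in wild-type and an adjusted p of 0.999.

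The remaining ADAMTS proteases spanned a wide range of levels and none passed. Adamts10, a protease tied to fibrillin microfibrils, was the most abundant, with fitted levels of 28411 normalized counts in Yeti and 28268 in wild-type. Its log2 fold change was 0.01 ± 0.21 per the authors' deposited table, with an interval from -0.41 to 0.42 and an adjusted p of 0.999. Adamts17, tied to the same human eye and skeletal syndrome as Adamts10, stood at 0.34 ± 0.25, Adamts19 at 0.28 ± 0.34 and Adamts6 at -0.04 ± 0.17 per the authors' deposited table.

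The ADAMTS-like genes, with changes below 2-fold, did not pass. All 5 had intervals within a 2-fold change in either direction, and 0 of 5 passed per the authors' deposited table (0 also at an unadjusted p under 0.05). Adamtsl2, which binds fibrillin and latent TGF-beta binding protein, was the most abundant, with fitted levels of 13091 normalized counts in Yeti and 11032 in wild-type and a log2 fold change of 0.25 ± 0.23 (adjusted p = 0.993) per the authors' deposited table. Adamtsl4, a fibrillin-binding protein, had almost equal fitted levels of 3264 in Yeti and 3261 in wild-type, with an interval of the log2 fold change from -0.25 to 0.26. Adamtsl1 (-0.14 ± 0.29), Adamtsl3 (-0.38 ± 0.30) and Adamtsl5 (-0.18 ± 0.19) were below 0 per the authors' deposited table.

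The gelatinases differed in abundance and in spread. Mmp2, the gelatinase of mesenchymal cells (ENSMUSG00000031740, chromosome 8, 92827291 to 92853420), reached fitted levels of 43139 normalized counts in Yeti and 28702 in wild-type. Yeti stood 0.59 ± 0.23 higher on the log2 scale per the authors' deposited table, with an unadjusted p of 0.0120 that did not pass after adjustment (0.226). Its interval ran from 0.13 to 1.05. Mmp9, the gelatinase rich in neutrophils and macrophages, had fitted levels of 476 in Yeti and 480 in wild-type. That is -0.01 ± 0.59 on the log2 scale per the authors' deposited table, with an interval from -1.16 to 1.14 that holds a 2-fold change either way.

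The stromelysins that were well expressed stood a little below 0. Mmp3, stromelysin-1, which cleaves proteoglycans and activates other MMPs, had fitted levels of 5708 normalized counts in Yeti and 7118 in wild-type, with a log2 fold change of -0.32 ± 0.26 (adjusted p = 0.957) per the authors' deposited table. Mmp11, stromelysin-3, stood at -0.15 ± 0.35, with fitted levels of 2261 in Yeti and 2516 in wild-type.

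The collagenases and the macrophage elastase were low and variable. Mmp13, the main interstitial collagenase of mice, had fitted levels of 36.9 normalized counts in Yeti and 17.9 in wild-type, with a log2 fold change of 1.04 ± 0.62 (adjusted p = 0.715) per the authors' deposited table. Mmp8, the neutrophil collagenase, had fitted levels of 201 in Yeti and 149 in wild-type and stood at 0.44 ± 0.64 per the authors' deposited table. Mmp12, the macrophage elastase, had 59.7 in Yeti and 58.1 in wild-type and stood at 0.04 ± 0.66 per the authors' deposited table. Both had an adjusted p of 0.999. Their derived coefficients of variation were 0.539 for Mmp8 and 0.545 for Mmp12, against medians of 0.716 for the neutrophil markers and 0.402 for the macrophage and monocyte markers. Whether such cells carry these transcripts was not tested.

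A run of 8 members, all MMPs on the plus strand, lies within 427 kb of chromosome 9. Mmp1b, an MMP gene on the opposite strand that overlaps Mmp12, had no row in the authors' deposited table and is not counted. In order, the members with a row go from Mmp13 through Mmp12, Mmp3, Mmp1a, Mmp10, Mmp8 and Mmp27 to Mmp7. The GENCODE M21 annotation holds 51 symbols that fit the rule, and 49 of them had a row. Genes without a row are left out of this order. Mean normalized counts per kilobase of exon along the run, in that order, were 10.3, 8.14, 3561, 0.151, 0.178, 72.1, 40.2 and 0.470. Mmp3 thus stood far above every other member of the run, and Mmp1a and Mmp10, the next members along, were near 0. None of the 5 genes of the run with an adjusted p passed per the authors' deposited table (0 also at an unadjusted p under 0.05).

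Promoters of 6 of the 8 genes of this run hold letters that most promoters lack. RefSeq promoters of 300 bases (GRCm38.p6, 250 before and 50 after a start) were available for 34 members, with 37 starts, all 8 genes of the run among them. They were searched on both strands for TGANTCA, the letters bound by AP-1, a factor made of Fos and Jun proteins, and for TTCNNNGAA, the letters of the interferon-gamma activated site (GAS). Adamts4 was not among the members searched. The AP-1 letters stood in 6 of the members' 37 promoters, 16.2%, and in 7.81% of all 32851 promoters. Counted by gene, with any listed start, these were 6 of the 8 genes of the run and 0 of the 26 other members searched. Mmp8 and Mmp27 were the genes of the run without them. The 7.81% counts promoters, and no share by gene was worked out for all genes. The GAS letters stood in 2 of the 37 promoters, 5.41%, both of Mmp23, and in 8.30% of all promoters. These 2 promoters overlap and hold the same letters, at -98 from 1 start and -4 from the other. The 6 windows with AP-1 letters follow in genome order, 100 bases before to 50 after the start, with those letters in capitals. They show where the letters stand in genes of very different level.
Mmp13 (chr9:7272414-7272563, plus strand): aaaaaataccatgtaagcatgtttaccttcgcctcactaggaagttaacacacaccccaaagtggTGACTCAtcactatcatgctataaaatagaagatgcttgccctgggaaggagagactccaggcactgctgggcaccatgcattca
Mmp12 (chr9:7347274-7347423, plus strand): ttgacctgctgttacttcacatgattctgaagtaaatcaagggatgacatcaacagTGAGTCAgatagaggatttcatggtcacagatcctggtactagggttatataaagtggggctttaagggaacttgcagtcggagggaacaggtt
Mmp3 (chr9:7445722-7445871, plus strand): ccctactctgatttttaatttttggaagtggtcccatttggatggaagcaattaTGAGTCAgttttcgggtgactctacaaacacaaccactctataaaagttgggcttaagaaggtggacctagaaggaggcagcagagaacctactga
Mmp1a (chr9:7464041-7464190, plus strand): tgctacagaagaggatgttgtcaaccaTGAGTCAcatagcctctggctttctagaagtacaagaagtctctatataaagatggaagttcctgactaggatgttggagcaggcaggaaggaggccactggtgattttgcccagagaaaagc
Mmp10 (chr9:7502242-7502391, plus strand): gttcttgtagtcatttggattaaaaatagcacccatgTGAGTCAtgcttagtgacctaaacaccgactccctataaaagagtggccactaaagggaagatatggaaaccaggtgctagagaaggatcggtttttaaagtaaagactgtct
Mmp7 (chr9:7691990-7692139, plus strand): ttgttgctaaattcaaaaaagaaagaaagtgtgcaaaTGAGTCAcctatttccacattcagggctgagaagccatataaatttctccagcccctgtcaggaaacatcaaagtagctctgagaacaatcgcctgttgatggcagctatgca
Counted from the start, the first capital lay at -35 in Mmp13, -44 in Mmp12, -46 in Mmp3, -73 in Mmp1a and -63 in both Mmp10 and Mmp7. Mmp13 has the letters TGACTCA and the other 5 have TGAGTCA. For Mmp12 and Mmp7, 1 of the 2 listed starts had them. Among these genes, Mmp3 had a mean of 6413 normalized counts and Mmp1a, Mmp10 and Mmp7 had 2 or 3 reads in all libraries together. The letters are a description of the sequence, and binding was not measured.

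None of the 5 tested membrane-type MMPs, which act at the cell surface, passed. At an unadjusted p under 0.05, 3 of the 5 were higher and 1 was lower, where 9.28% of all genes and 10.8% of those with a mean of at least 100 normalized counts had such a p per the authors' deposited table. Mmp14, the membrane-anchored activator of pro-MMP2, was the most abundant, with fitted levels of 13565 normalized counts in Yeti and 10949 in wild-type. The log2 difference was 0.31 ± 0.12 per the authors' deposited table, with an unadjusted p of 0.0110 and an adjusted p of 0.213. Mmp17, held at the membrane by a lipid anchor, had fitted levels of 833 in Yeti and 546 in wild-type, and a log2 fold change of 0.61 ± 0.22 (unadjusted p = 0.00596, adjusted p = 0.145) per the authors' deposited table. Mmp25, also lipid-anchored and first described in leukocytes, had fitted levels of 225 in Yeti and 69.9 in wild-type. Its log2 fold change, 1.68 ± 0.61 (unadjusted p = 0.00583, adjusted p = 0.143) per the authors' deposited table, was the second highest of the tested members. Its derived coefficient of variation was 0.509, and beside it stand the neutrophil and the macrophage and monocyte markers, 7 and 8 in number, which summed to 6909 and 15910 in Yeti and to 5374 and 9136 in wild-type and whose part in this value was not tested. Mmp16 had fitted levels of 59.2 in Yeti and 100.4 in wild-type, with a log2 fold change of -0.76 ± 0.34 (unadjusted p = 0.0252, adjusted p = 0.366) per the authors' deposited table. Mmp15 stood at -0.30 ± 0.26 per the authors' deposited table.

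Other MMPs did not pass and stood near 0. Mmp19, with the most counts, had fitted levels of 1667 in Yeti and 1544 in wild-type and was at 0.11 ± 0.14 (adjusted p = 0.999) per the authors' deposited table. Mmp23 was at 0.01 ± 0.27, Mmp27 at -0.16 ± 0.32 and Mmp28 at -0.18 ± 0.28 per the authors' deposited table. For all 4 the interval lay within a 2-fold change either way. Exons of Tmem198b, on the opposite strand, share 22.3% of the exon bases of Mmp19, and no source used here gives the strand setting of the counting, so reads of the pair cannot be told apart.

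None of the 4 TIMPs passed, and the abundant Timp2 and Timp3 stood just below 0 while the scarcer Timp1 and Timp4 stood above it. Timp2, which both inhibits MMPs and serves as the bridge between Mmp14 and pro-MMP2, had fitted levels of 41306 normalized counts in Yeti and 46112 in wild-type. The fold change of Timp2 was -0.16 ± 0.15 on the log2 scale per the authors' deposited table, with an interval from -0.46 to 0.14 and an adjusted p of 0.997. Timp3, the matrix-bound inhibitor that also blocks ADAMTS proteases, had fitted levels of 36995 in Yeti and 39580 in wild-type, with a log2 fold change of -0.10 ± 0.18 (adjusted p = 0.999) and an interval from -0.44 to 0.25 per the authors' deposited table. Timp1, the inhibitor that many cytokines induce, had fitted levels of 1307 in Yeti and 853 in wild-type. For Timp1 the log2 fold change was 0.62 ± 0.23 per the authors' deposited table, with an unadjusted p of 0.00648 and an adjusted p of 0.154, so the rise did not pass. Timp4 had fitted levels of 303 in Yeti and 203 in wild-type and a log2 fold change of 0.57 ± 0.41 (adjusted p = 0.869) per the authors' deposited table. Timp1, Timp3 and Timp4 each lie within a synapsin gene on the opposite strand. The shared exon bases were 0 for Timp1, 1.53% of the exon bases of Timp4 and 21.3% of those of Timp3, whose partner Syn3 had a mean of only 48.9 normalized counts per the authors' deposited table.

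Levels of different genes were compared per kilobase of exon. Timp2 was highest with a mean of 11219 normalized counts per kilobase, followed by Mmp2 with 10656, Timp3 with 4701, Adamts1 with 4340, Mmp3 with 3561 and Adamts10 with 3433. Fitted levels per kilobase placed Mmp2 above Timp2 in Yeti (12797 and 10602) and below it in wild-type (8514 and 11836), as the plot of levels shows. Summed per kilobase, the 21 MMPs reached 20640 in Yeti and 16671 in wild-type, and the 4 TIMPs 16669 in Yeti and 17691 in wild-type. The sum of MMPs over the sum of TIMPs was 1.24 in Yeti and 0.942 in wild-type. Mmp2 made up 62.0% of the MMP sum in Yeti and 51.1% in wild-type, and without it the ratios were 0.471 in Yeti and 0.461 in wild-type. No error can be given for these sums from values that are not per library, and Mmp2 itself did not pass. The ratios are of RNA, not of protein or its activity, and their size depends on the exon lengths used.

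**Figure D3:**
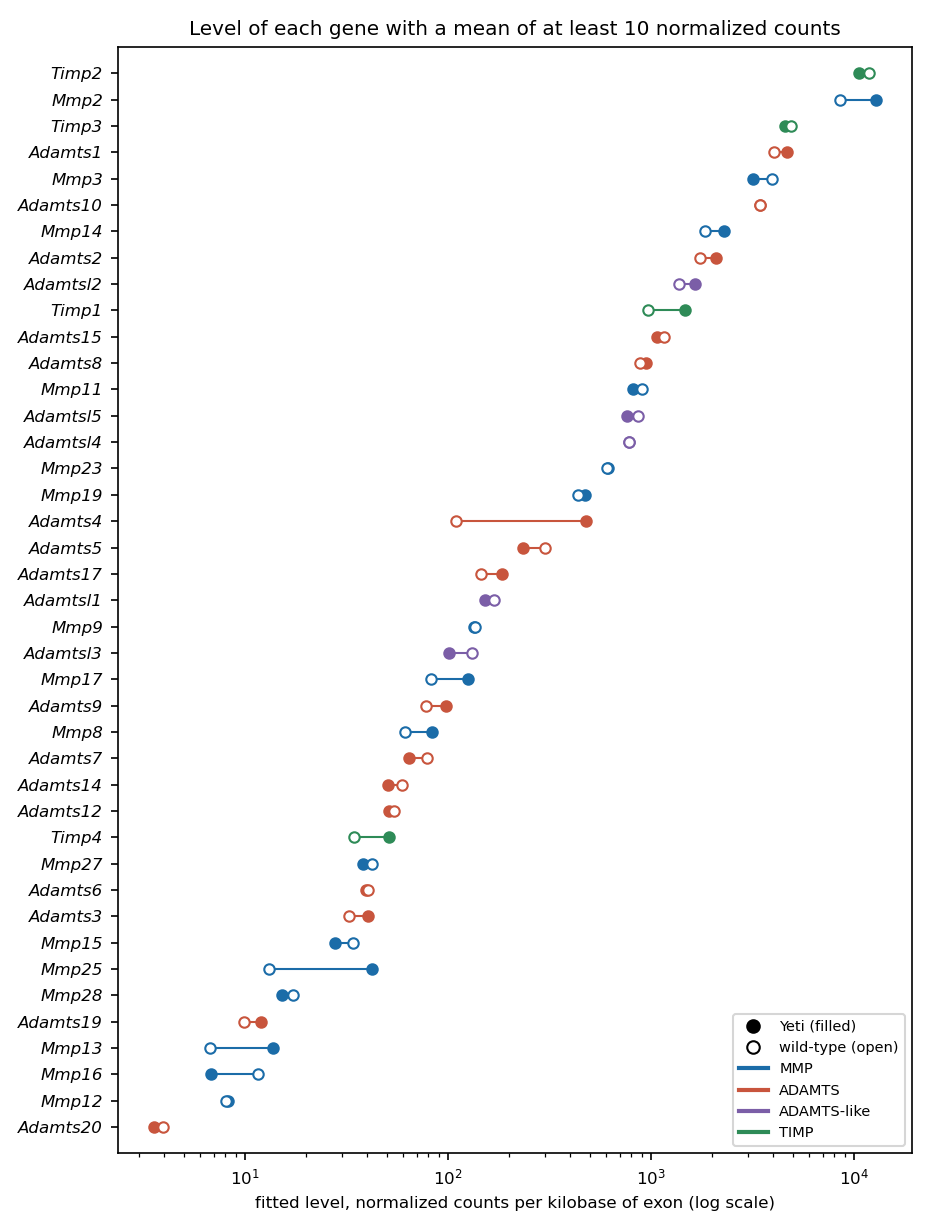
Fitted level in normalized counts per kilobase of exon (log axis) of the 41 members with a mean of at least 10 normalized counts, with Yeti as filled and wild-type as open points joined by a line, sorted by mean level. Timp2 and Mmp2 lead, and the longest line is that of Adamts4.

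The spread between libraries, as derived from the SE, was uneven among members. The derived coefficient of variation had a median of 0.205 over the 42 members and 0.207 over all genes with an adjusted p. Among genes with a mean of at least 100, it was 0.194 for members and 0.141 for all genes. Of 41 members with a mean of at least 10 normalized counts, 6 had a value above 0.4, namely Adamts4, Mmp8, Mmp9, Mmp12, Mmp13 and Mmp25.

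The 8 members with a mean under 5 normalized counts could be traced back to whole reads, since the lowest means of the authors' deposited table are sums of reads divided by 6 library factors. Each of the 8 had a single solution. The group of each factor followed from the sign of the authors' fold change, and which replicate it belongs to is not known. Adamts16 had 4, 2 and 0 reads in the Yeti libraries and 22, 2 and 1 in the wild-type libraries. A single wild-type library thus held 22 of its 31 reads, and the groups overlapped. The log2 fold change of Adamts16 was -1.95 ± 1.48 per the authors' deposited table. Adamts13, which cleaves von Willebrand factor, had no adjusted p. It had 2, 1 and 1 reads in Yeti and 7, 4 and 4 in wild-type, 19 in all. Its unadjusted p was 0.0967 per the authors' deposited table.

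Mmp21 had 6, 6 and 3 reads in Yeti and 5, 4 and 0 in wild-type. Mmp24 had 5, 1 and 1 in Yeti and 3, 1 and 0 in wild-type, and the groups overlapped for both genes. Mmp7, the matrilysin of epithelial cells, had 3, 0 and 0 reads in Yeti and 0 in every wild-type library. Adamts18 had 0 reads in every Yeti library and 2, 1 and 0 in wild-type, and Mmp1a and Mmp10 each had 0 in every Yeti library and 2, 0 and 0 in wild-type. At 2 or 3 reads in all, no difference was detectable at this depth for these 4 genes. Mmp1a is annotated as a polymorphic pseudogene.

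**Figure D4:**
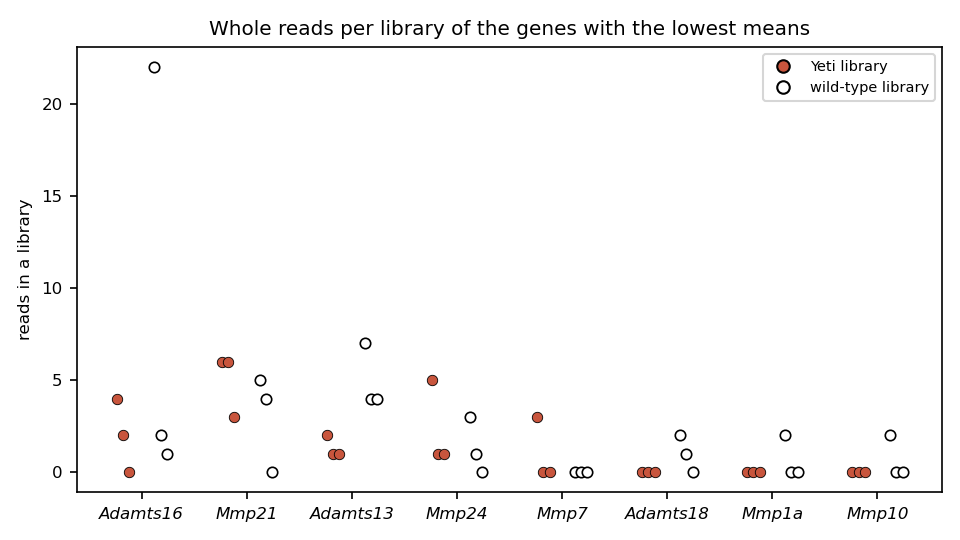
Whole reads in each library for the 8 members with a mean under 5 normalized counts, with the 3 Yeti libraries to the left and the 3 wild-type libraries to the right for each gene. The reads of Adamts16 come mainly from 1 wild-type library with 22 reads.

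Genes that act with these proteases changed at 3 of 64, 4.69% against the background of 2.84%. Of these related proteases, inhibitors and substrates, 1 rose and 2 fell per the authors' deposited table, with a median log2 fold change of 0.10. At an unadjusted p under 0.05 there were 13, 20.3% of the 64, against 9.28% of all genes and 10.8% of genes with a mean of at least 100 normalized counts. Of these 13, 8 were higher, against a background of 5.28%, and 5 were lower, against a background of 4%. All 3 that passed were substrates. Eln, the elastin gene and a substrate of several MMPs, had fitted levels of 136745 normalized counts in Yeti and 77807 in wild-type, and rose by 0.81 ± 0.20 on the log2 scale per the authors' deposited table, adjusted p = 0.00266. Reln, the gene of reelin, a secreted glycoprotein that Adamts3 can cleave, had fitted levels of 80.8 in Yeti and 872 in wild-type. Reln fell by 3.43 ± 0.29 per the authors' deposited table, adjusted p = 9.68e-30, and all 5 lymphatic endothelial markers, Reln being one of them, fell, with summed fitted levels of 521 in Yeti and 3003 in wild-type, whose part in this value was not tested. Bcan, a brain-type proteoglycan that Adamts4 can cleave, had fitted levels of 10.5 in Yeti and 34.8 in wild-type and fell by 1.74 ± 0.49 per the authors' deposited table, adjusted p = 0.0185. Vcan, the gene of versican, a substrate of Adamts4, stood at 0.17 ± 0.20 per the authors' deposited table.

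The protease lists around them held no gene that passed. Of the plasminogen system, 0 of 8 passed, with 2 higher at an unadjusted p under 0.05. Serping1, the C1 inhibitor and most abundant member, stood at 0.28 ± 0.16 per the authors' deposited table. Of 10 cathepsins and their inhibitor, 0 passed, with Cst3, the inhibitor and most abundant, at 0.35 ± 0.12 per the authors' deposited table. It was the only 1 of this list with an unadjusted p under 0.05. Of 9 ADAM proteases, 0 passed and 2 were higher at an unadjusted p under 0.05, Adam8 at 1.19 ± 0.48 and Adam23 at 0.71 ± 0.28 per the authors' deposited table. Adam9, the most abundant, stood at 0.13 ± 0.11. None of the 4 tested procollagen C-proteinases and enhancers passed (0 also at an unadjusted p under 0.05), and Pcolce2, the most abundant, stood at -0.23 ± 0.28 per the authors' deposited table. Of 14 tested activators, inhibitors and clearance genes, 0 passed, with 1 lower at an unadjusted p under 0.05, Spock2 at -0.61 ± 0.26 per the authors' deposited table. Lrp1, the endocytic receptor that clears MMPs and ADAMTS proteases, was the most abundant of them and stood at 0.11 ± 0.13 per the authors' deposited table. Adam8, Adam23, Spock2 and Vcan were chosen to be named after their values were seen.

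**Figure D5:**
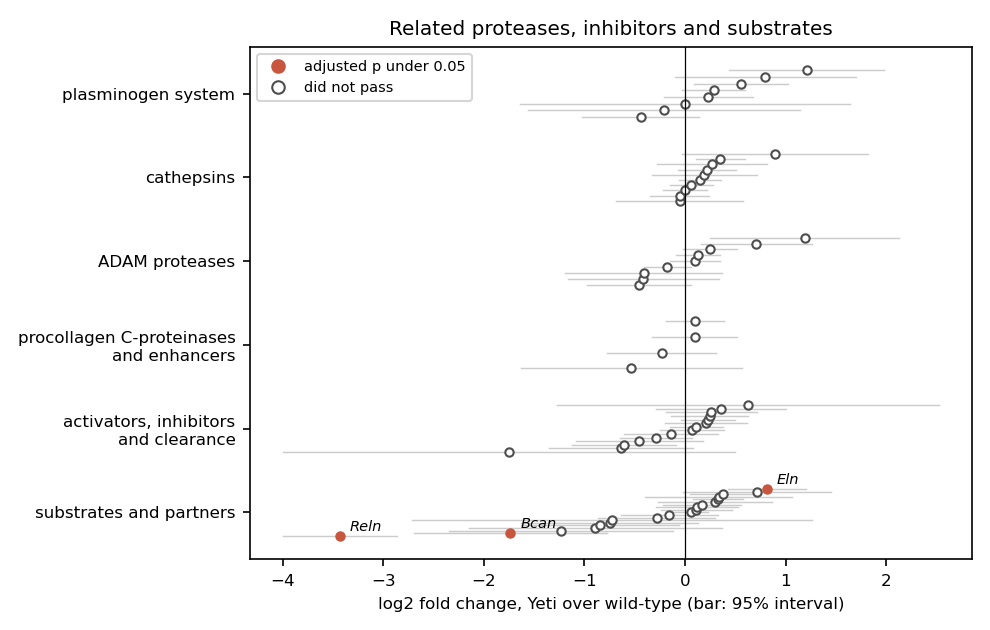
Log2 fold change, Yeti over wild-type, of the 64 tested related genes by list, with 95% intervals as bars and filled points where the adjusted p was under 0.05. The 3 filled points, Eln above 0 and Bcan and Reln below it, are all substrates.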

How the data were processed

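RNA-seq of sorted lung mesenchyme was compared between 3 Yeti and 3 wild-type libraries, grouped by their titles. The submitters' processing notes name FastQC, STAR, DESeq, GRCm38 and mm10 and no versions. How reads were counted, with which strand setting and annotation, is not given in the sources used here. A single table of the comparison was deposited by the authors. Its mean is a signal, counts divided by size factors and averaged, per the file headers. The log2 fold change, its SE, the Wald statistic (a score), the p-value and the adjusted p-value are the authors' deposited values, and the statistic equals the fold change over its SE within 4.25e-07. A p-value was given for 29308 of 29322 genes and an adjusted one for 20212. The design allowed for counts per library, and none were used. Adjusted p-values stay those over all genes.

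Fitted levels, 95% intervals (1.96 SE), the coefficient of variation derived from SE and levels, and levels per kilobase of merged GENCODE M21 exons were computed with Python 3.11.15, pandas 2.3.3 and scipy 1.17.1. Whole reads were matched to a mean within 3e-08 after 6 library factors had been read from the 21 lowest distinct means, with the group taken from the sign of the deposited fold change. The adjustment and the t distribution were tried on data simulated from the authors' SEs, and the derivation of the coefficient of variation on SEs made from a set spread. The matching of whole reads, the levels per kilobase and the promoter search were not tried on simulated data. Members and lists were chosen with earlier results of these data known, so no list was tested. Every member may be named; levels, fold change, SE and adjusted p were given for those with an adjusted or unadjusted p under 0.05, the member with the highest mean of each role among those with an adjusted p, the 10 most abundant and the TIMPs. Protein sequences were not used here. Some results on genes outside the family are not reported here.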

Additional observations from a re-analysis of the deposited data

How the results depend on the processing

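The count of 1 member higher and 0 lower in Yeti was the same with p-values adjusted over every gene with a p-value, over genes with a mean of at least 10 or 100 normalized counts, with fold changes taken relative to the median of all genes, and at thresholds of 0.01 and 0.1. The 1 member higher was also counted with members matched by identifier. With a t distribution of 4 degrees of freedom in place of the normal for the Wald statistic, 0 members passed, as did 0 related genes higher and 0 lower and 0 of all 20212 genes; unadjusted, 2 members (both higher) and 809 genes had p under 0.05. Of related genes, 1 instead of 2 was lower with a mean of at least 100, which leaves out Bcan (mean 22.6), and at a threshold of 0.01, and 2 instead of 1 were higher at a threshold of 0.1. At 0.01, 372 genes in all passed, against 574. The members' median log2 fold change ranged from 0.0016 to 0.0076 over the filters and the rescaling, and the mean weighted by inverse squared SE was 0.076. Of 85 values for 17 named members, 84 were counted as keeping their direction and side of the threshold and 1 was weaker, Adamts4 with the t distribution. Since that setting called 0 of all 20212 genes, its outcome is not particular to Adamts4. Among the 84 is Mmp16 over genes with a mean of at least 100, where it had no adjusted p (mean 79.8). Only the rescaling to the median changed a fold change, and only Adamts4 had passed at first, so most values could hardly differ. Leaving out a library, edgeR and other size factors were not run, since values per library were not used. No paired analysis was possible because the columns carry no replicate numbers. Depth limits the 4 members with 2 or 3 reads.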

Other observations

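Of 3 pairs of neighbouring members outside the chromosome 9 run of MMPs, 2 differed widely in level and 1 did not. Adamts1 and Adamts5 lie within 108 kb on chromosome 16 at means of 4340 and 267 normalized counts per kilobase of exon. Adamts13 and Adamtsl2 lie within 136 kb on chromosome 2, at 0.631 and 1509. Adamts15 and Adamts8, within 64.7 kb on chromosome 9, were alike in level at 1110 and 918, and their log2 fold changes were -0.11 ± 0.15 and 0.10 ± 0.14 (SE) in the authors' deposited table.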
